A study of Mus musculus with 2 samples.

Results

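STAT proteins and the suppressors of cytokine signalling were followed here at the transcript level in γδ T cells of the mouse lung. The genes were Stat3, Stat4, Stat5a, Stat5b, Stat6, Socs1, Socs2, Socs3 and Cish, which were picked by symbol and are 9 of the 32285 genes in the count tables. The study compared 2 single-cell RNA sequencing (scRNAseq) libraries from uninfected mice of 5 to 7 weeks. The WT library was made from sorted Vγ1-negative γδ T cells of C57BL/6NCrl mice. The KO library was made from sorted Vγ1+ γδ T cells of mice of the strain B6.Cg-Tcrgtm1lku(B6.Vg4-/-Vg6-/-), in which the Vγ4 and Vγ6 chains of the γδ T cell receptor are disrupted. Genotype and sorted subset therefore change together between the libraries and cannot be told apart, and whether animals were pooled is not given in the sources used here. Each group is 1 library, so no test between libraries was possible, no p-value is given, and every 95% interval below covers counting error only.

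Cytokines of the common γ chain, IL-6 and IL-12 families bind receptors that carry Janus kinases. These kinases phosphorylate STAT proteins, which then form dimers and activate genes in the nucleus. STAT3 acts downstream of IL-6, IL-21 and IL-23 and is needed for many IL-17 programs, STAT4 acts downstream of IL-12 in IFN-γ programs, STAT5A and STAT5B transmit IL-2, IL-7 and IL-15 signals, and STAT6 transmits the IL-4 signal. The SOCS proteins and CIS, the product of Cish, are induced by STATs and feed back on the receptors and kinases that activated them. Transcript levels of these genes report neither phosphorylation nor protein.

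Cish is a known target of STAT5, whose dimers bind the palindrome TTCNNNGAA. The motif equals its own reverse complement, so a single scan covers both strands. RefSeq promoters (GRCm38.p6, 250 bases before to 50 after a start) were available for 8 of the 9 genes, without Socs2. Of these 8, Cish and Socs3 held a match and the other 6 did not. Stat4, Stat5a and Stat5b had more than 1 promoter each, and none of these held a match. The member count is by gene and the shares that follow are by promoter, so they cannot be compared directly. At least 1 match was found in 8.3% of the 32851 mouse promoters in the table, and at least 2 matches in 0.457%. Both sequences are shown because they carry the matches, which are in capitals. In Cish (chr9:107296409-107296708, plus strand) the 2 matches begin at the RefSeq start and 11 bases after it. In Socs3 (chr11:117969317-117969616, minus strand) the single match begins 154 bases before the RefSeq start (offset -154). Both stretches lie inside the GENCODE gene ranges given below, whose starts are further upstream.
Cish: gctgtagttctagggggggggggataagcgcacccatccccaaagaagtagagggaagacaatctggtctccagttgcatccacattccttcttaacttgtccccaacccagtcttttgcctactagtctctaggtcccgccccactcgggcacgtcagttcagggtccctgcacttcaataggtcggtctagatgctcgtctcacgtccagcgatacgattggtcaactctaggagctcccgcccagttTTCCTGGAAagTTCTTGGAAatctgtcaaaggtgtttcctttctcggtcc
Socs3: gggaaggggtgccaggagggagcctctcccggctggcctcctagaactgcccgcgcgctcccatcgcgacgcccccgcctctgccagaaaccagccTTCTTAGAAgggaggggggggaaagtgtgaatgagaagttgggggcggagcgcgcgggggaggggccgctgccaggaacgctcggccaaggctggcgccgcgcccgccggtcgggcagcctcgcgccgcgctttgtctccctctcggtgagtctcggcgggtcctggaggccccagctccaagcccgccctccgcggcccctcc
A match is a description of these letters and not evidence of binding.

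In GENCODE coordinates (GRCm38), Stat5b (11:100780731-100850724, minus strand), Stat5a (11:100859351-100885169, plus strand) and Stat3 (11:100885098-100939540, minus strand) lie next to each other on chromosome 11. Stat5b and Stat5a are separated by 8626 bases, and the ends of Stat5a and Stat3 share 72 bases on opposite strands. The sources used here do not say whether counting used strand, and reads in those bases are uncertain. Stat5a and Stat5b are similar in sequence, and their sum is therefore given beside the separate values. Socs3 (11:117966079-117970047, minus strand) lies further along the same chromosome. Cish is at 9:107296026-107302784 (plus strand), Socs1 at 16:10782240-10785536 (minus strand), Socs2 at 10:95385362-95417180 (minus strand), Stat6 at 10:127642986-127660957 (plus strand) and Stat4 at 1:51987148-52107189 (plus strand).

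After filtering, 2426 WT cells with a median of 3272 UMIs (unique molecular identifiers, each counting 1 captured molecule) and 6585 KO cells with a median of 3520 UMIs were used. Cd3e was detected in 85.4% of WT and 89.5% of KO cells, whereas Trdc, the γδ constant gene, was detected in 41.2% and 43.8%. The KO library held 0 Tcrg-V6 UMIs but 1286 Tcrg-V4 UMIs in 15% of its cells, although its label names Vγ4 as disrupted. The source of these UMIs was not tested, and the cells of this library are called KO-labelled below. In the WT library, Tcrg-V1 was detected in 7.87% of cells. The libraries shared 23 barcodes.

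Cells were grouped by the Tcrg-V genes they contained: 518 WT cells with Tcrg-V6 as their only Tcrg-V gene, 402 WT cells with only Tcrg-V4, and 2871 KO-labelled cells with Tcrg-V1. The KO-labelled group, unlike the WT groups, could hold other Tcrg-V genes as well. Median depths were 3598, 3407 and 4182 UMIs. In each library cells were also divided by detection of Tmem176b, a gene of IL-17-type γδ T cells, and Ly6c2, a gene of memory and IFN-γ-type T cells. Tmem176b without Ly6c2 was found in 1114 WT and 1343 KO-labelled cells, called Tmem176b cells. Ly6c2 without Tmem176b was found in 390 and 1440 cells, called Ly6c2 cells. Both genes were found in 40 and 163 cells, and neither in 882 and 3639. Il17a, the gene of the signature cytokine, stood at 415.8 CPM (counts per 1e+06 UMIs) in WT Tmem176b cells and 83.10 in KO-labelled ones, and at 1.212 and 0.1698 CPM in the Ly6c2 cells, which had 2 and 1 UMIs of it. The summed CPM of 14 stress genes, which respond to tissue dissociation, ran from 4348 in WT Ly6c2 cells to 8492 in WT Tmem176b cells. That of 13 myeloid and B cell markers stayed between 17.91 and 75.60. Levels are the CPM of the UMIs summed over the cells of a group, and a gene is counted as past the threshold when 2 levels differ by over 1.5-fold (0.58 on the log2 scale) with at least 30 UMIs over both sums.

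Among the STAT genes, Stat5a and Stat5b varied most across the 8 detection classes, with a highest over lowest level of 4.59 for Stat5a and 3.87 for Stat5b. The same ratio was 1.77 for Stat4, 1.73 for Stat3 and 1.46 for Stat6. Among the inhibitors it was 8.33 for Socs2, 7.81 for Cish, 2.32 for Socs3 and 1.58 for Socs1. The lowest Stat3 level, 272.6 CPM (214.4 to 341.7), came from the 40 WT cells with both genes, whose median was 6472 UMIs.

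**Figure D1:**
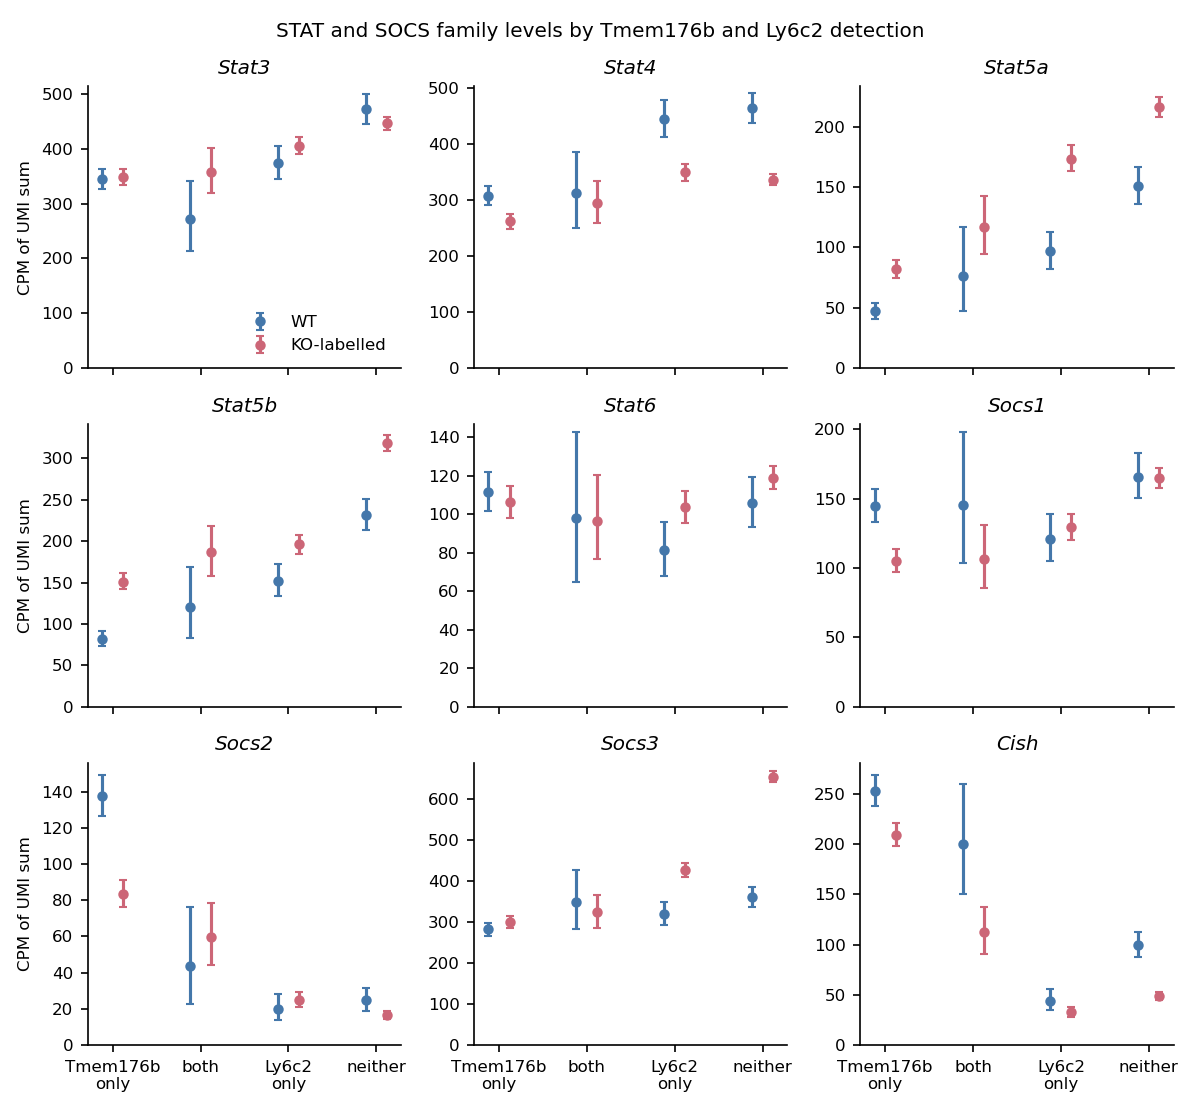
Level of each gene (CPM of the UMI sum, linear axis from 0) in cells with Tmem176b only, both genes, Ly6c2 only or neither gene, for the WT and the KO-labelled library. Points are 1 UMI sum each and bars are 95% Poisson intervals. Cish and Socs2 are highest in Tmem176b cells of both libraries (253.4 and 209.6 CPM for Cish). Within each library Stat5a and Stat5b are lowest there, and Socs3 is highest in KO-labelled cells with neither gene (654.0 CPM).

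Cish, which restrains IL-2 and antigen receptor signalling, was higher in Tmem176b than in Ly6c2 cells of both libraries. Its level was 253.4 CPM (238.3 to 269.2) in WT Tmem176b cells and 44.26 (34.69 to 55.64) in WT Ly6c2 cells. In the KO-labelled library it was 209.6 (198.2 to 221.5) and 32.44 (28.00 to 37.38). The difference was 2.52 on the log2 scale (2.17 to 2.88) in WT and 2.69 (2.47 to 2.92) in KO-labelled cells. Cells with neither gene stood in between, at 99.20 CPM in WT and 48.40 in KO-labelled cells. The interval of the WT Tmem176b cells overlapped neither that of the KO-labelled Tmem176b cells nor those of the Ly6c2 cells, while the KO-labelled and WT Ly6c2 cells overlapped each other.

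The same difference was present in the number of cells with the transcript. After each cell was thinned to 2000 UMIs, Cish was detected in 37.2% of WT Tmem176b cells against 8.63% of WT Ly6c2 cells, and in 31.6% against 5.03% of KO-labelled cells. Without thinning the shares were 50.8% and 14.1% in WT, and 48.6% and 9.79% in KO-labelled cells. In the myeloid- and B-marked cells left out of the groups, the unthinned share was 12.7% of 79 WT cells and 14.3% of 49 KO-labelled cells at medians of 4490 and 4939 UMIs. The unthinned shares in Ly6c2 cells, at medians of 4032 and 3581 UMIs, lay within the 95% Clopper-Pearson intervals of these shares (6.24% to 22% and 5.94% to 27.2%). Whether the left-out cells express Cish themselves was not tested, so these shares are not a measured background.

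Socs2, best known for restraining growth hormone receptor signalling, was also highest in Tmem176b cells of both libraries. In WT cells it was at 137.6 CPM (126.5 to 149.3) in Tmem176b cells and 20.01 (13.77 to 28.10) in Ly6c2 cells. In KO-labelled cells it was at 83.43 (76.29 to 91.06) and 24.96 (21.09 to 29.34). The Tmem176b over Ly6c2 ratio was 2.78 on the log2 scale (2.27 to 3.33) in WT and 1.74 (1.47 to 2.02) in KO-labelled cells. The levels of the Ly6c2 cells of both libraries overlapped, and those of the Tmem176b cells did not. Cells with neither gene were at 24.80 CPM (19.01 to 31.79) in WT and 16.52 (14.38 to 18.90) in KO-labelled cells. In the KO-labelled library these were therefore below the Ly6c2 cells for Socs2 (log2 ratio -0.60, -0.91 to -0.28), unlike for Cish. In the left-out myeloid- and B-marked cells the share with Socs2 was 6.33% (WT) and 8.16% (KO-labelled), against 26.8% and 21.6% of Tmem176b cells and 5.64% and 5% of Ly6c2 cells.

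Stat5a and Stat5b ran the other way. Stat5a stood at 47.06 CPM (40.69 to 54.15) in WT Tmem176b cells and 97.00 (82.55 to 113.2) in WT Ly6c2 cells, a log2 ratio of -1.04 (-1.35 to -0.73). In KO-labelled cells the levels were 81.94 (74.86 to 89.50) and 173.6 (163.1 to 184.5), a log2 ratio of -1.08 (-1.24 to -0.93). Stat5b was lower in Tmem176b cells by a log2 ratio of -0.89 (-1.13 to -0.65) in WT, from 152.2 to 82.29 CPM, and of -0.37 (-0.50 to -0.25) in KO-labelled cells, from 196.0 to 151.2 CPM, which did not pass 1.5-fold. The summed Stat5a and Stat5b level gave -0.95 in WT and -0.66 in KO-labelled cells. Within each library, Cish, a STAT5 target, was thus high in the class in which both STAT5 genes were lower. Across libraries the summed levels of KO-labelled Tmem176b and WT Ly6c2 cells overlapped, at 233.2 CPM (221.1 to 245.7) and 249.2 (225.7 to 274.5). Cish stood at 209.6 and 44.26 CPM in these cells.

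Of the 9 genes, 4 passed 1.5-fold between Tmem176b and Ly6c2 cells in WT (Socs2, Cish, Stat5a and Stat5b), where 32.1% of the 9092 genes with the minimum did. In the KO-labelled library 3 passed (Cish, Socs2 and Stat5a), where 25.7% of 10258 genes did. The median log2 ratio of the 9 genes was -0.12 in WT and -0.30 in KO-labelled cells, and that of all genes was 0.0099 and -0.0034. Beside this, the stress genes were higher in the Tmem176b cells, with 9 of 14 past 1.5-fold and 0 lower in WT and 6 of 14 in KO-labelled cells. Their part in the result was not tested. With the 25% of cells richest in stress UMIs left out, the WT log2 ratios were 2.54 for Cish and 3.27 for Socs2. In KO-labelled cells they were 2.43 and 1.87. Stress levels of the remaining cells are not given here, and the classes may still differ in them.

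The remaining genes differed by less than 1.5-fold between these classes. Stat4 was lower in Tmem176b cells of both libraries, at 307.7 against 445.0 CPM in WT (log2 ratio -0.53, -0.66 to -0.40) and 262.1 against 349.8 in KO-labelled cells (-0.42, -0.51 to -0.32). Stat3 was at 344.9 and 374.0 CPM in WT and at 347.7 and 405.4 in KO-labelled cells, so the STAT of the IL-23 receptor was not higher in the IL-17-type class. Stat6 had a log2 ratio of 0.46 (0.18 to 0.75) in WT and 0.0336 (-0.13 to 0.20) in KO-labelled cells. Socs1, an inhibitor of Janus kinases in IFN-γ signalling, had a log2 ratio of 0.26 (0.0229 to 0.49) in WT and -0.30 (-0.45 to -0.14) in KO-labelled cells. Socs3, which binds the shared IL-6 receptor chain and limits STAT3, had -0.18 (-0.33 to -0.0296) and -0.51 (-0.60 to -0.42).

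**Figure D2:**
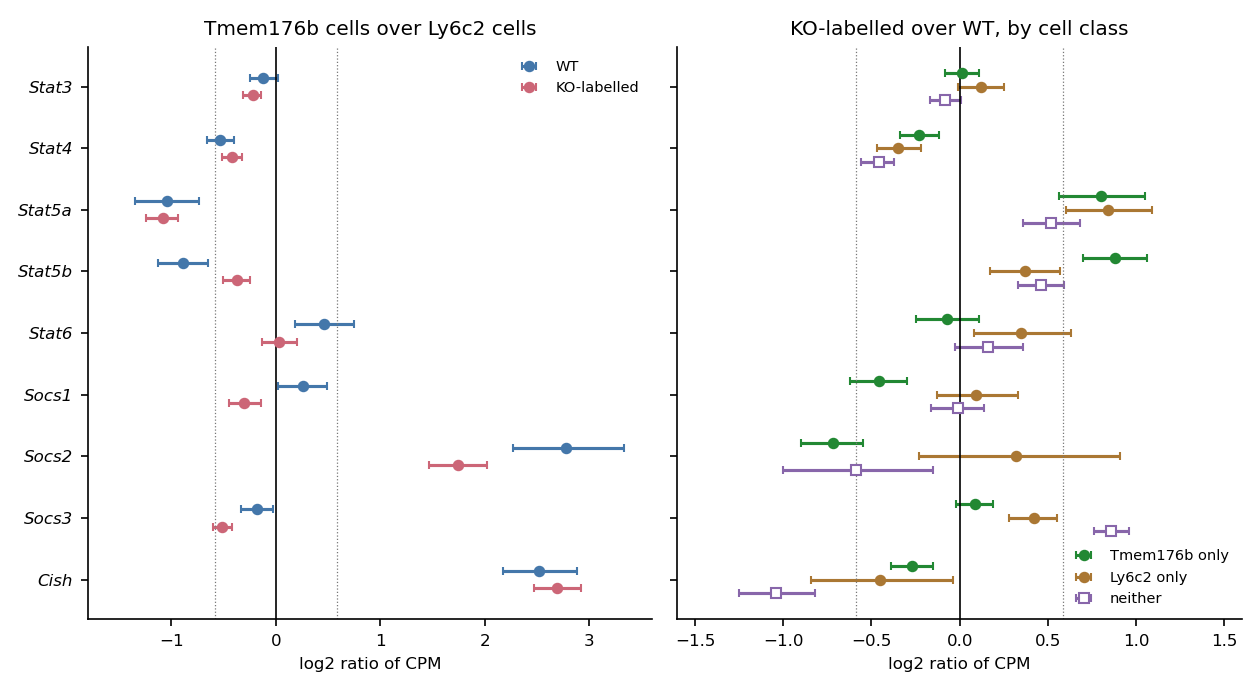
Log2 ratios of CPM with 95% counting intervals, for Tmem176b over Ly6c2 cells in each library (left) and for KO-labelled over WT cells within 3 detection classes (right). Dotted lines mark 1.5-fold. Cish and Socs2 lie at 1.74 or above in both libraries on the left, and on the right Stat5a is positive in all 3 classes while Socs2 is negative in Tmem176b cells (-0.72).

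Between the libraries, Stat5a was higher in KO-labelled cells among Tmem176b cells, Ly6c2 cells and cells with neither gene. Among cells with both genes its intervals overlapped, at 76.33 CPM (47.25 to 116.7) in WT and 117.0 (94.99 to 142.6) in KO-labelled cells. Its log2 ratio of KO-labelled over WT cells was 0.80 (0.56 to 1.05) among Tmem176b cells, 0.84 (0.60 to 1.09) among Ly6c2 cells and 0.52 (0.36 to 0.68) among cells with neither gene. Stat5b gave 0.88 (0.70 to 1.06), 0.37 (0.17 to 0.57) and 0.46 (0.33 to 0.59). The summed pair gave 0.85 (0.71 to 1.0) among Tmem176b and 0.57 (0.42 to 0.72) among Ly6c2 cells. Stat4 pointed down in the same 3 classes, at -0.23, -0.35 and -0.46.

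Among Tmem176b cells 3 of the 9 genes passed 1.5-fold between the libraries (Stat5b and Stat5a higher, Socs2 lower in KO-labelled cells), beside 18.6% of 10033 genes. Socs2 was at 83.43 CPM in KO-labelled and 137.6 in WT cells, a log2 ratio of -0.72 (-0.90 to -0.55). After thinning it was -0.58 and no longer past 1.5-fold. Cish gave -0.27 (-0.39 to -0.15) and Socs1 -0.46 (-0.62 to -0.30). Stat3 gave 0.0118 (-0.0860 to 0.11) and Socs3 0.0875 (-0.0196 to 0.19), with intervals that included 0. Among Ly6c2 cells only Stat5a of the 9 passed, beside 16.4% of 9410 genes. Socs3 gave 0.42 (0.28 to 0.55) there and Cish -0.45 (-0.84 to -0.0388), which passed 1.5-fold after thinning (-0.75).

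The Tcrg-V groups were drawn from the same cells as the detection classes, so a similar pattern in them is not an independent repeat. WT cells with Tcrg-V6 had the highest Cish and Socs2 levels of the 3 groups, at 278.6 CPM (255.8 to 302.9) and 168.0 (150.4 to 187.1). WT cells with Tcrg-V4 had 116.3 (99.76 to 134.8) and 39.65 (30.26 to 51.04), and KO-labelled Tcrg-V1 cells had 90.93 (85.90 to 96.17) and 40.52 (37.19 to 44.07). The Tcrg-V6 interval overlapped neither of the others for both genes, and the other two overlapped each other for Socs2 but not for Cish.

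Stat5a was lowest in Tcrg-V6, intermediate in Tcrg-V4 and highest in Tcrg-V1 cells, with 50.75 CPM (41.29 to 61.73), 101.8 (86.33 to 119.2) and 163.1 (156.4 to 170.1) and no overlap. Stat5b had 100.5, 134.2 and 240.4 CPM, and the first 2 intervals did not overlap either (86.98 to 115.5 and 116.3 to 153.9). Socs3 had 233.5 (212.6 to 255.8), 350.9 (321.7 to 382.1) and 419.5 CPM (408.7 to 430.6). Stat4 had 302.5, 382.0 and 301.0 CPM. For Stat3, Stat6 and Socs1 the log2 ratios between any 2 of the 3 groups lay between -0.31 and 0.21.

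Comparing KO-labelled Tcrg-V1 with WT Tcrg-V6 cells, 5 of 9 genes passed 1.5-fold, beside 35.5% of 10749 genes. These were Stat5a (log2 ratio 1.68), Stat5b (1.26) and Socs3 (0.85), which were higher, and Socs2 (-2.05) and Cish (-1.62), which were lower. Against WT Tcrg-V4 cells 2 genes passed, Stat5b (0.84, 0.64 to 1.05) and Stat5a (0.68, 0.44 to 0.93), beside 23.2% of 10688 genes. The Stat5a value fell below 1.5-fold under 3 alternatives, to between 0.35 and 0.57. Within the WT library, Tcrg-V4 over Tcrg-V6 cells had 4 past the threshold, namely Stat5a (1.0, 0.63 to 1.38), Socs3 (0.59, 0.41 to 0.77), Cish (-1.26, -1.51 to -1.01) and Socs2 (-2.08, -2.50 to -1.68), beside 23.7% of 8044 genes. Socs3 lay at the threshold and did not pass it under 4 alternatives, with values from 0.22 to 0.58. These 3 comparisons share groups and are not independent. The stress list stood at 7226 CPM in Tcrg-V6, 7347 in Tcrg-V4 and 5049 in KO-labelled Tcrg-V1 cells.

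The groups differed in how many cells carried Tmem176b, which was detected in 456 of 518 Tcrg-V6, 166 of 402 Tcrg-V4 and 904 of 2871 Tcrg-V1 cells. The ratios were therefore repeated on cells with Tmem176b alone. Stat5a then did not separate Tcrg-V4 from Tcrg-V6 cells, with 48.28 and 47.31 CPM and a log2 ratio of 0.0295 (-0.63 to 0.65). Socs2 remained lower in Tcrg-V4 cells at 61.60 against 176.4 CPM (-1.52, -2.05 to -1.02), and Cish at 176.5 against 289.4 CPM (-0.71, -1.03 to -0.41). Socs3 was higher in Tcrg-V4 cells at 351.3 against 228.2 CPM (0.62, 0.38 to 0.87), and Stat3 was lower at 226.4 against 359.5 CPM (-0.67, -0.94 to -0.40). The levels of Il2ra, the IL-2 receptor α chain, and Il23r were lower in the same Tcrg-V4 cells, by log2 ratios of -0.91 and -0.83.

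Among Tmem176b-positive cells the KO-labelled Tcrg-V1 cells had log2 ratios over Tcrg-V6 cells of -1.08 for Socs2 (-1.30 to -0.86), -0.55 for Cish (-0.71 to -0.39), -0.59 for Socs1 (-0.82 to -0.37), 0.87 for Stat5a (0.53 to 1.23) and 0.76 for Stat5b (0.52 to 1.02). The Cish and Socs3 ratios thus no longer passed 1.5-fold, Socs3 being 0.29 (0.12 to 0.45). Over Tcrg-V4 cells with Tmem176b, the same cells had 1.28 for Stat5b (0.80 to 1.79) and 0.84 for Stat5a (0.30 to 1.44), and the intervals of Cish (0.16, -0.13 to 0.47) and Socs2 (0.44, -0.0531 to 0.96) included 0.

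**Figure D3:**
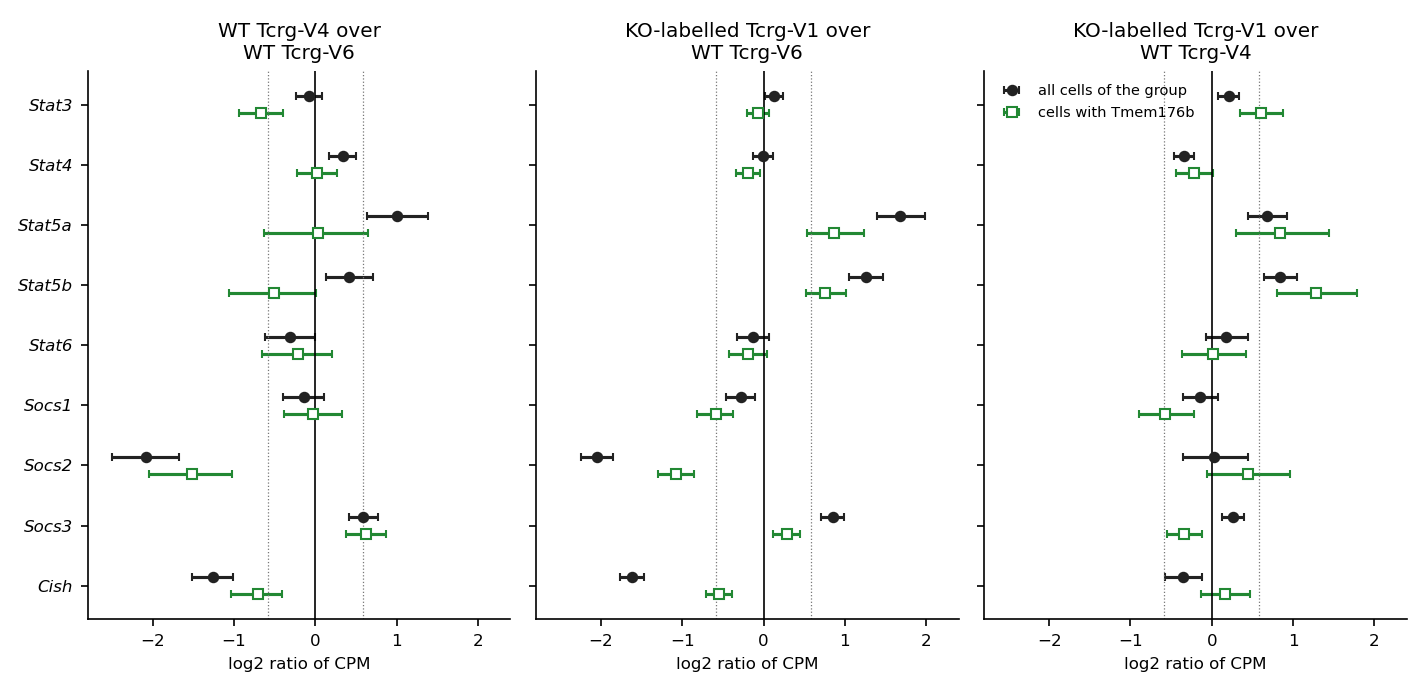
Log2 ratios of CPM with 95% counting intervals between the 3 Tcrg-V groups, for all cells of a group (filled circles) and for its cells with Tmem176b (open squares). Dotted lines mark 1.5-fold. In the left panel Stat5a moves from 1.0 to 0.0295 when cells with Tmem176b are taken, while Socs2 stays below the dotted line at -1.52.

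The split by Tmem176b could also be made inside 1 Tcrg-V group. Within KO-labelled Tcrg-V1 cells, those with Tmem176b exceeded those without it by log2 ratios of 2.41 for Cish (2.23 to 2.60) and 2.14 for Socs2 (1.87 to 2.41), and were lower for Stat5a (-1.22, -1.38 to -1.06), Stat5b (-0.89, -1.02 to -0.77) and Socs3 (-0.82, -0.91 to -0.73). Within WT Tcrg-V4 cells the ratios were 1.20 for Cish, 1.29 for Socs2, -1.50 for Stat5a, -1.51 for Stat5b and -0.92 for Stat3, and Socs3 gave 0.0027 (-0.25 to 0.26). Hence Cish, Socs2, Stat5a and Stat5b had the same sign in both groups, and Socs3 had a difference in 1 of them.

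In the KO-labelled library, Socs3 was highest outside both marker classes. In KO-labelled cells with neither Tmem176b nor Ly6c2 it reached 654.0 CPM (640.1 to 668.1), against 426.4 (409.9 to 443.4) in Ly6c2 and 299.5 (285.8 to 313.6) in Tmem176b cells. WT cells with neither gene had 360.4 (337.2 to 384.7), so the KO-labelled cells exceeded them by a log2 ratio of 0.86 (0.76 to 0.96). Within WT this interval overlapped those of cells with both genes (348.9, 282.6 to 426.1) and of Ly6c2 cells (319.5, 292.8 to 348.0). After thinning, Socs3 was detected in 55.4% of the KO-labelled and 41.7% of the WT cells with neither gene. This class differed between the libraries in other ways, since Il23r stood at 227.2 CPM in WT and 21.10 in KO-labelled cells, and the stress list at 5945 and 4863 CPM. Its median depth was 2594 UMIs in WT and 3209 in KO-labelled cells, and its myeloid and B cell markers stood at 75.60 and 28.16 CPM. How far low depth placed cells in this class was not tested.

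Levels were also taken over all cells of a library with a UMI of 1 marker gene, whatever their detection class, with markers chosen after the values had been seen. KO-labelled cells with a UMI of Cd8b1, a chain of the CD8 co-receptor, had Socs3 at 998.1 CPM (967.7 to 1029), above every detection class. Levels were 675.2 in KO-labelled cells with Gzma, 577.6 with Ccr9, 536.6 with Cd24a and 348.7 with Il17a. In WT cells Socs3 was at 496.2 (428.5 to 571.5) with Cd8b1, 421.0 with Ccr9 and 238.7 with Gzma. Socs1 was also high in Cd8b1 cells, at 230.5 (216.0 to 245.6) in the KO-labelled and 240.3 (194.0 to 294.4) in the WT library. Socs2 was low in Cd8b1 cells of both libraries, at 6.110 and 10.34 CPM. Cells can carry several of these markers, so these sets overlap.

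**Figure D4:**
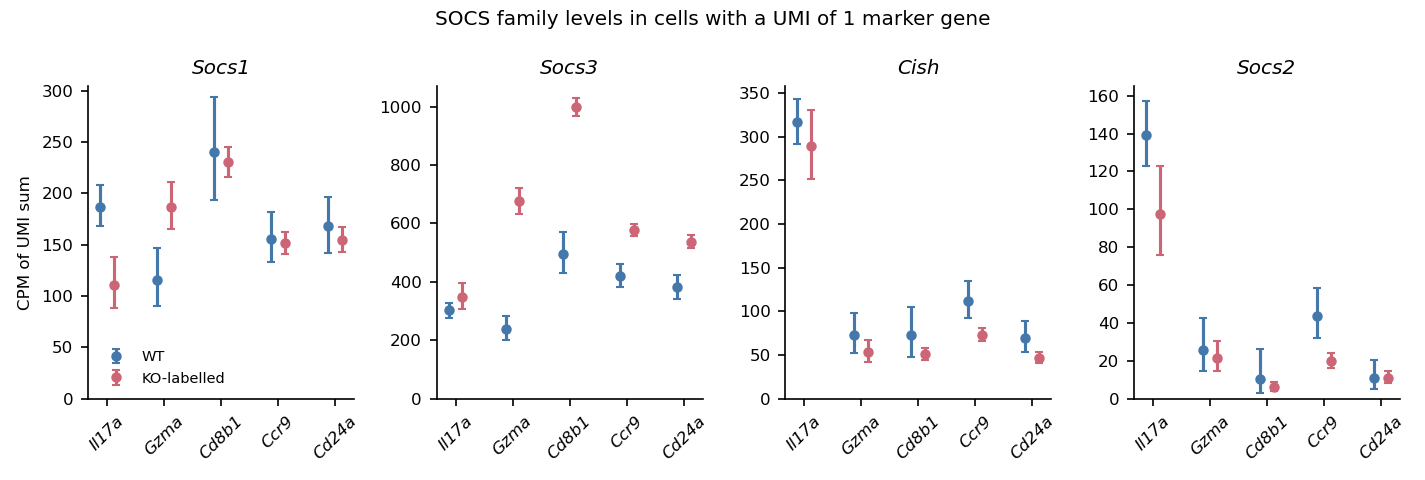
Levels of Socs1, Socs3, Cish and Socs2 (CPM of the UMI sum, axis from 0) in cells with a UMI of Il17a, Gzma, Cd8b1, Ccr9 or Cd24a, for both libraries, with 95% Poisson intervals. Socs3 peaks in KO-labelled Cd8b1 cells at 998.1 CPM, and Cish and Socs2 are highest in Il17a cells of both libraries.

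Receptor genes upstream of these STATs were counted from a list of 18 chains, chosen with earlier results of these data known. It holds IL-23 and IL-12 receptor chains, of the IL-17 and IFN-γ programs that the marker genes were used to tell apart. The counts beside the share of all genes are therefore a description only. Between Tmem176b and Ly6c2 cells 10 of the 17 chains with enough UMIs passed 1.5-fold in WT (5 higher, 5 lower), beside 32.1% of all genes. In KO-labelled cells 9 of 18 passed (6 higher, 3 lower), beside 25.7% of all genes. The medians were -0.11 in WT and 0.0471 in KO-labelled cells. Il23r, the specific chain of the IL-23 receptor, had the highest ratio in both. It stood at 390.7 CPM in WT Tmem176b cells and at 1.819 CPM, from 3 UMIs, in WT Ly6c2 cells, a log2 ratio of 7.75 (6.20 to 10.03). In KO-labelled cells the levels were 250.0 and 2.887 CPM, a log2 ratio of 6.44 (5.75 to 7.22). Il2ra followed, with 5.17 (4.32 to 6.18) and 3.98 (3.66 to 4.32), so the α chain of the IL-2 receptor was high in the class with the highest Cish levels.

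The 2 lowest ratios belonged to Il12rb2, the signalling chain of the IL-12 receptor, with -4.62 (-5.11 to -4.17) in WT and -2.90 (-3.13 to -2.67) in KO-labelled cells, and to Il6st, the shared IL-6 receptor chain, with -2.87 and -1.90. The common γ chain Il2rg and the IL-2 and IL-15 receptor β chain Il2rb lay within 0.43 of 0 in both libraries. Il7r was higher in Tmem176b cells by 1.13 in WT and 0.80 in KO-labelled cells. Between the libraries, 6 of 18 chains passed among Tmem176b cells, beside 18.6% of all genes. There Il12rb2 was higher in KO-labelled cells (1.52, 1.03 to 2.04) and Il23r lower (-0.64, -0.75 to -0.54). Among Ly6c2 cells 2 of 16 passed, beside 16.4% of all genes.

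**Figure D5:**
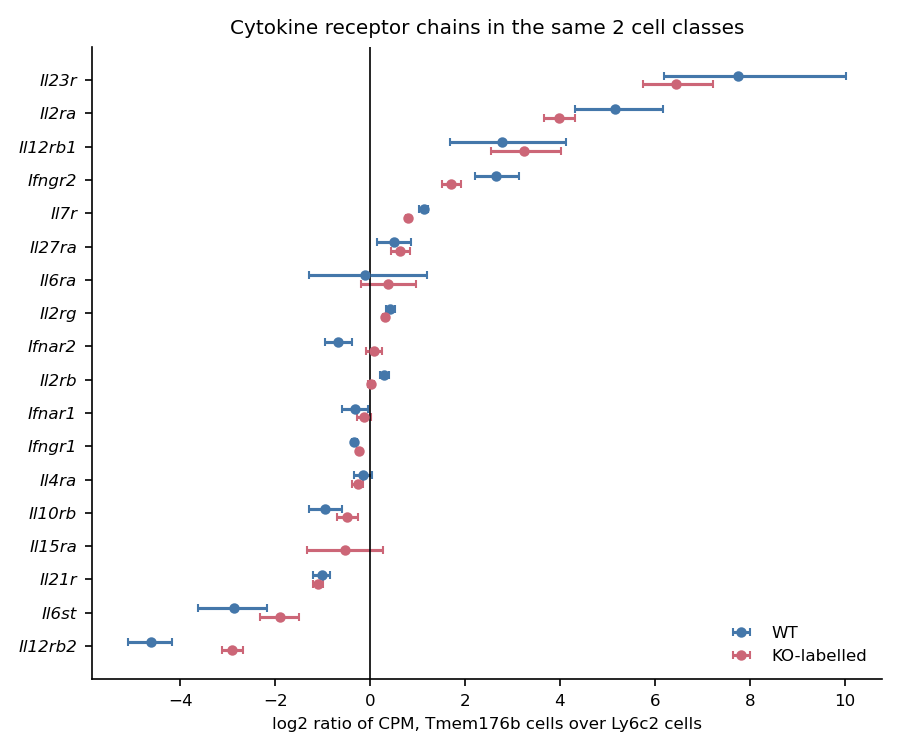
Log2 ratios of CPM, Tmem176b over Ly6c2 cells, for receptor chains with at least 30 UMIs over both sums in the WT and KO-labelled libraries, with 95% counting intervals and chains ordered by the KO-labelled ratio. Il23r and Il2ra lie at the top (6.44 and 3.98 in KO-labelled cells) and Il6st and Il12rb2 at the bottom.

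Because Il2ra and Cish were both high in Tmem176b cells, these cells were divided by detection of Il2ra, a split chosen after the values had been seen. After thinning to 2000 UMIs, Cish was higher in the cells with Il2ra in both libraries, at 323.0 against 234.2 CPM in WT (log2 ratio 0.46, 0.21 to 0.72) and 271.5 against 195.6 in KO-labelled cells (0.47, 0.22 to 0.73). Socs2 gave 0.47 (0.11 to 0.82) in WT and -0.0760 (-0.51 to 0.34) in KO-labelled cells. Stat5a was lower in KO-labelled cells with Il2ra, at 52.22 against 99.21 CPM (-0.93, -1.46 to -0.42), while in WT its interval included 0 (0.18, -0.47 to 0.80). WT Tcrg-V6 cells stood above WT Tcrg-V4 cells for Il2ra (273.0 against 78.64 CPM), as for Cish and Socs2. Whether this split, and that by Cish below, also divided WT cells by Tcrg-V gene was not tested.

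The same thinned Tmem176b cells were divided by detection of Cish. Those with Cish had a higher Socs1 level in both libraries, with log2 ratios of 0.55 (0.20 to 0.89) in WT and 0.44 (0.0719 to 0.80) in KO-labelled cells. Socs2 was higher in WT cells with Cish (0.58, 0.23 to 0.92), whereas in KO-labelled cells the interval included 0 (0.0599, -0.35 to 0.46). Stat5b was lower in cells with Cish in both libraries, by -0.75 (-1.31 to -0.22) and -0.63 (-1.02 to -0.26). Cells with a Socs3 UMI had more Socs1 in both libraries, by 0.44 (0.0894 to 0.78) in WT and 0.71 (0.36 to 1.07) in KO-labelled cells. Cish in cells with Socs3 gave 0.21 (-0.0460 to 0.46) and 0.39 (0.14 to 0.63).

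Janus kinases and further pathway genes, mostly negative regulators, were counted from a list of 20 genes. Between Tmem176b and Ly6c2 cells 5 passed 1.5-fold in WT, beside 32.1% of all genes, and 4 in KO-labelled cells, beside 25.7%. The medians were 0.0935 and -0.12. Jak1, a kinase shared by many of these receptors, and Ptprc, the phosphatase CD45, were lower in Tmem176b cells in both libraries, by -0.89 (-0.99 to -0.80) and -1.15 (-1.24 to -1.07) in WT and by -0.82 and -0.76 in KO-labelled cells. At the other end of the list stood Ptpn6 (0.69) and Tyk2 (0.65, -0.0893 to 1.46) in WT, and Pias3 (0.44) and Socs6 (0.32) in KO-labelled cells. In the Tcrg-V comparisons 4 of 20 passed for Tcrg-V1 over Tcrg-V6, 4 of 20 for Tcrg-V1 over Tcrg-V4 and 4 of 16 for Tcrg-V4 over Tcrg-V6 cells. Of all genes, 35.5%, 23.2% and 23.7% passed in these comparisons.

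Of 12 genes known as STAT targets, 9 of 11 measured passed between Tmem176b and Ly6c2 cells in WT (4 higher, 5 lower), beside 32.1% of all genes. In KO-labelled cells 8 of 12 passed (3 higher, 5 lower), beside 25.7%. The list holds Il17a, Il17f and Ifng, cytokine genes of the IL-17-type and IFN-γ-type cells that the marker genes were used to tell apart. Il17a and Il17f were the 2 highest in both libraries. Ifng, the IFN-γ gene, was lowest, at -4.69 (-5.73 to -3.80) in WT and -2.44 (-2.88 to -2.03) in KO-labelled cells, next to Bcl6 (-1.40 and -1.35). Irf1, an interferon target, was at 200.1 against 429.8 CPM in WT and 256.8 against 577.0 in KO-labelled cells.

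Other genes whose log2 levels over the 8 detection classes were most like those of a member were listed among 8888 genes, as a description over 8 points that share libraries. For Stat5a these were Pik3ip1 (Pearson r 0.998), Scml4 (0.987) and Xab2 (0.985), and for Stat5b Ly6c1 (0.977), Gm14085 (0.975) and Scml4 (0.973). For Cish they included Adam8 (0.996) and Ly6g5b (0.993), and for Socs2 Lpcat1 (0.989), Ifi30 (0.987) and Tpst2 (0.982). For Socs3 they were Prkd2 (0.944), Sft2d1 (0.928) and Rbfa (0.921), and for Socs1 Setd3 (0.954), Prr5l (0.950) and Cd247 (0.916). Stat3 was most like 1110059G10Rik (0.983), Stat4 most like Ripk2 (0.967) and Stat6 most like 4921524J17Rik (0.929). Between members, r was 0.964 for Stat5a with Stat5b, 0.862 for Cish with Socs2 and -0.839 for Stat5a with Socs2.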

How the data were processed

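Lung γδ T cells of 1 WT and 1 KO library were profiled on the 10x Genomics platform. The deposited matrices hold raw UMI counts for each barcode and gene, made by the authors with Cell Ranger against mm10. The labels name version 7.0, the file headers 7.0.0, and the methods an older version. The labels give a 3' and the methods a V(D)J protocol. The libraries held 2520 (WT) and 6688 (KO) barcodes with 9173997 and 26436826 UMIs. Cells with over 200 and under 4000 genes and under 10% mitochondrial UMIs were kept (2505 and 6634), after the study's filter. Cells with at least 3 of 7 myeloid or of 6 B cell markers were left out (79 and 49). No doublet caller was run, and deep cells were left out as an alternative.

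Group sums of UMIs were taken over cells and divided by the summed UMIs of all genes (CPM). Intervals at 95% are Poisson for levels, exact conditional for ratios and Clopper-Pearson for shares. PCR duplicates are collapsed by the identifiers, but cells of a library are no replicates. Shares were compared after thinning to 2000 UMIs, leaving out 365 WT and 821 KO cells with fewer. Genes counted had at least 30 UMIs over both sums. A gene at 0 UMIs was set to 3 UMIs for a ratio. Code was tested on simulated data with Python 3.11.15, numpy 2.4.6, scipy 1.17.1 and pandas 2.3.3. Positions are from GENCODE and promoters from RefSeq.

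The members and all lists were chosen with earlier results of these data known. Named genes were the 9 members, the 2 highest and 2 lowest genes of a list in a comparison, and for each member the 3 genes most like it by Pearson's r of log2 CPM with 1 UMI added, among genes with at least 200 UMIs and without T cell receptor genes. Not every gene that this rule names is reported here. Jak1, Ptprc, Il2rb, Il2rg, Il7r, Irf1 and the single marker genes were named after their values were seen. The 7 comparisons were repeated under 12 to 14 alternatives each.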

Additional observations from a re-analysis of the deposited data

Results flagged for a closer look

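For 3 genes, the log2 ratios of the same contrast pointed in opposite directions in different libraries or cell classes, and none of these differences was tested, since each rests on 1 library. Socs1 in Tmem176b over Ly6c2 cells gave 0.26 in WT and -0.30 in KO-labelled cells. Socs1 in KO-labelled over WT cells gave -0.46 among Tmem176b and 0.0939 among Ly6c2 cells, and the second interval included 0 (-0.13 to 0.33). Socs2 gave -0.72 among Tmem176b and 0.32 among Ly6c2 cells (-0.23 to 0.91). Stat6 gave -0.0702 among Tmem176b (-0.25 to 0.11) and 0.35 among Ly6c2 cells.

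The cells left out as myeloid- or B-marked also held transcripts of the 9 genes, with 598 UMIs in 79 WT cells and 394 UMIs in 49 KO-labelled cells. Stat3 was detected in 79.7% and 67.3% of them, and Socs3 in 54.4% and 53.1%.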

How the results depend on the processing

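With 14 alternatives for the comparisons of Tcrg-V1 cells, 13 for Tcrg-V4 over Tcrg-V6 cells and 12 for the other 4 comparisons, 801 values of the 9 genes were recomputed. Of the 14, 12 were planned and 2 were chosen after seeing the data. Of the values, 731 stayed within their counting interval, 70 moved beyond it and 0 values past 1.5-fold changed sign. Of the 282 repeats of the 22 values past 1.5-fold, 12 were no longer past it. For KO-labelled Tcrg-V1 over WT Tcrg-V4 cells the number of genes past 1.5-fold went from 2 to 1 with 2 UMIs for detection, with the 25% of cells richest in stress UMIs left out and in cells with Xist and no Y-linked UMI, because Stat5a gave 0.35, 0.57 and 0.49. For KO-labelled over WT Ly6c2 cells it went from 1 to 2 with thinned cells, where Cish gave -0.75. Socs3 in Tcrg-V4 over Tcrg-V6 cells ranged from 0.22 to 0.75 and was not past 1.5-fold with myeloid- and B-marked cells kept (0.57), with 2 UMIs for detection (0.39), after centring on the median of all genes (0.58) and in cells with Xist and no Y-linked UMI (0.22). In Tcrg-V1 over Tcrg-V6 cells it ranged from 0.29 to 1.18 and was not past it in cells with Xist and no Y-linked UMI (0.45) or with Tmem176b (0.29), where Cish (-0.55) was not either. Stat5a in Tcrg-V4 over Tcrg-V6 cells was lost in cells with Tmem176b (0.0295), and Socs2 in KO-labelled over WT Tmem176b cells after thinning (-0.58). Cish in Tmem176b over Ly6c2 cells stayed between 2.35 and 2.70 in WT and between 2.43 and 2.85 in KO-labelled cells, and Socs2 between 2.51 and 3.27 and between 1.46 and 1.87. The causes were not tested. No paired analysis was possible because there was only 1 library in a group. The number of cells limits the values of the 40 WT cells with both marker genes and the 96 WT Tcrg-V4 cells with 2 UMIs.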
